A study of Cannabis sativa with 12 samples.

Results

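The genes described here are the hemp contigs whose deposited annotation names a lipid transfer protein, a 3-ketoacyl-CoA synthase, a wax or cutin gene, a fatty acid hydroxylase or a GDSL lipase. They were taken by a search of the gene symbols and annotation descriptions, which found 29 of the 3622 contigs in the table. Of the 29, 16 are lipid transfer proteins, 11 are GDSL proteins, 1 is the ketoacyl-CoA synthase KCS10 and 1 is the wax gene CER3. The words cutin and fatty acid hydroxylase found 0 contigs, so the set is mostly one of lipid transfer and GDSL proteins. Contigs carry the name or locus of their best Arabidopsis match, 25 names in all, and are told apart below by contig number where a name occurs more than once. The contig annotated as GLTP1 entered only because its description, a glycolipid transfer protein, contains the search words.

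The cuticle is the lipid layer that seals the outer wall of the epidermis. Its waxes are made from very long-chain fatty acids, which the ketoacyl-CoA synthases elongate in the endoplasmic reticulum, and its cutin is a polyester that is assembled outside the cell. Lipid transfer proteins are small, mostly secreted proteins that hold a lipid in a hydrophobic pocket, and some of the secreted GDSL enzymes join cutin monomers into the polymer, as known from tomato fruit. Both families are large in plants, and many members act in other walls and tissues, the vascular tissue included.

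RNA came from whole hypocotyls of Cannabis sativa cv. Santhica 27, a fibre hemp, sampled 6 (H6), 9 (H9), 15 (H15) and 20 (H20) days from sowing, an interval in which the study set elongation of the organ against its later thickening. Each time point had 3 libraries, each from a pool of 20 hypocotyls of a single experimental batch grown in incubators (16 h light, 25°C, and 8 h dark, 20°C). Levels are RPKM (reads scaled by contig length and by the mapped reads of the library), which puts contigs and libraries on a common scale. They hold no correction for a shift in the makeup of the RNA between time points. How far the scaling moves the changes is given at the end. The table holds contigs that the authors had selected for differing among the time points, so a change by itself sets no member apart, and counts of changed members are given beside the share of all 3622 contigs.

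The libraries held 13413501 to 25855419 mapped reads, and members had 12 to 11210 reads per library. Values of the same time point differed from each other by a median coefficient of variation of 12.9% (H6), 17.7% (H9), 19.1% (H15) and 13.3% (H20) over the members. In H9, replicate 3 was the lowest library for 22 of the 29 members, against 43.6% of all contigs, and in H15, replicate 2 was the lowest for 16, against 41.6%. In H6, replicate 1 was the lowest for 18, against 37.9% of all contigs. Because whole organs were pooled, fewer cells of a type and less RNA per cell cannot be told apart in any value that follows.

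From H6 to H20, 13 of the 29 members rose (34.2% of all contigs did) and 11 fell (37.4%), while 5 were not called, namely CER3, the lipid transfer contig AT3G53980 and the GDSL contigs AT4G01130, AT5G45950 and AT1G75900 contig 5489. A contig counted as called at an adjusted p under 0.05 (edgeR, quasi-likelihood test over all contigs) when its log2 fold change was also over 1, up or down. The 82.8% of members called stood beside 71.6% of all contigs, and the median absolute log2 change was 1.67 in the members and 1.37 over all contigs. The 3 libraries of H20 lay entirely above or entirely below those of H6 for 28 members, as they did for 93.4% of all contigs. Lipid transfer proteins had a median log2 change of 1.17 and GDSL proteins one of −0.20, with −0.58 over all contigs.

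The steps between neighbouring time points differed in size. From H6 to H9, 2 members rose (17.9% of all contigs) and 8 fell (18.2%), a split of 3 and 5 with DESeq2 and its own scaling. From H9 to H15, 9 rose (22.7%) and 9 fell (20.8%), and here the median absolute log2 change was 1.34 in the members and 0.89 over all contigs. From H15 to H20, 3 rose (5.25%) and 3 fell (8.31%). Over the 3 steps in turn, 34.5%, 62.1% and 20.7% of the members were called, beside 36.0%, 43.5% and 13.6% of all contigs. The libraries of the neighbouring time points did not overlap for 18, 26 and 10 members, beside 74.6%, 83.1% and 57.5% of all contigs. At the H9 to H15 step 11 of 16 lipid transfer contigs were called, with a median absolute log2 change of 1.84, and 6 of 11 GDSL contigs, with 1.02. The difference between the families was not tested.

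**Figure D1:**
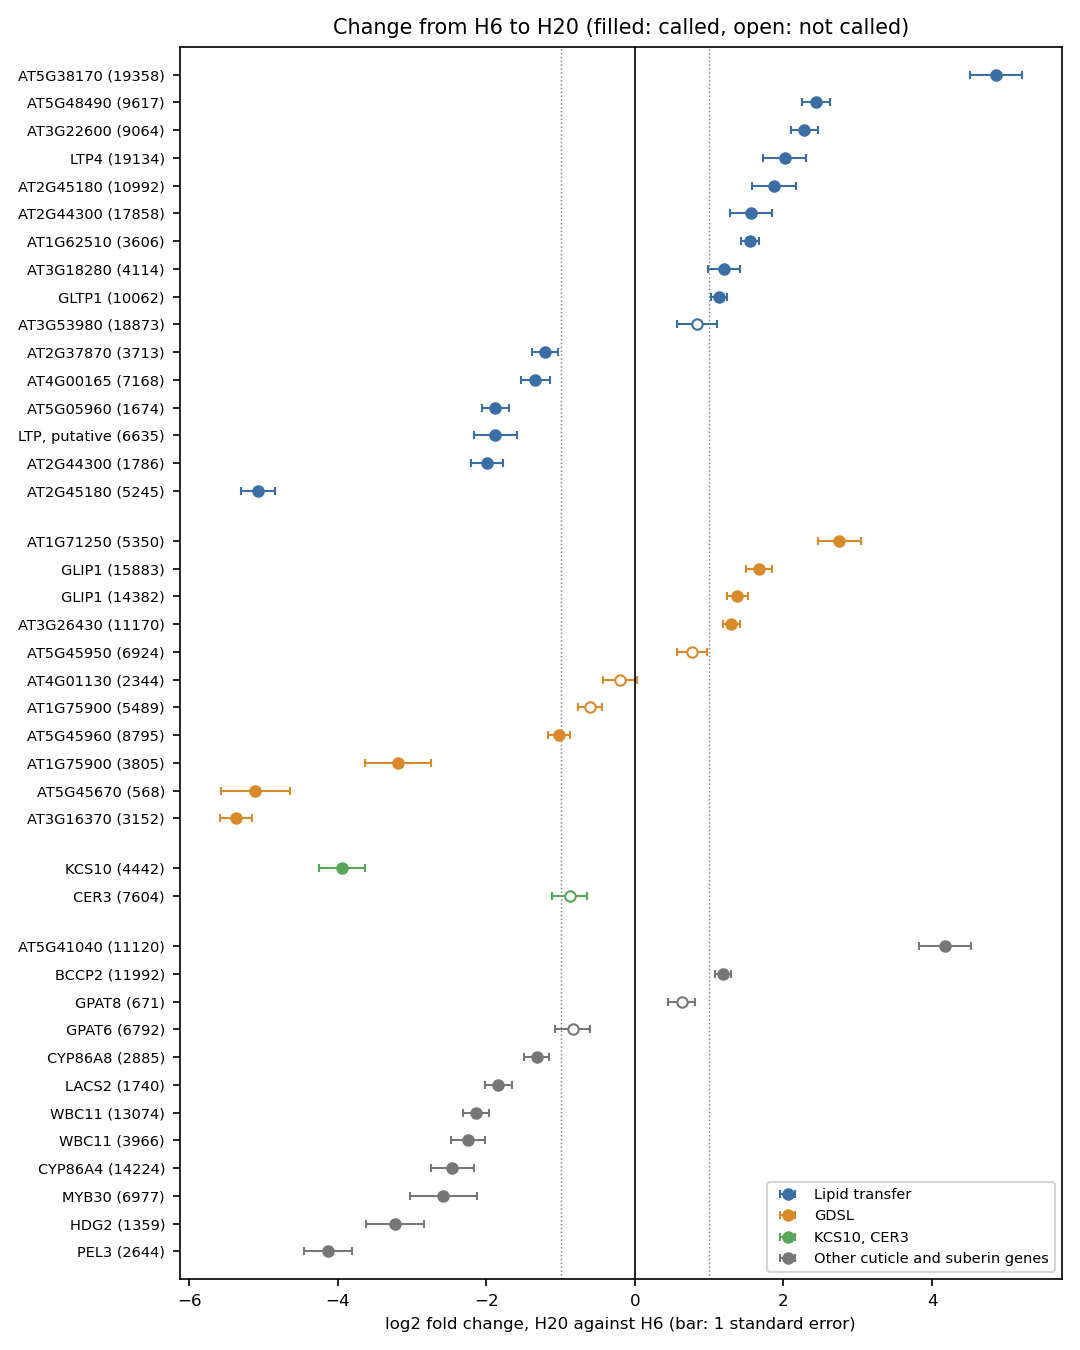
Log2 fold change from H6 to H20 (x axis) with its standard error for each of the 29 contigs and for 12 other contigs of cuticle, suberin, epidermis and fatty acid genes. Filled points were called, open points were not, and dotted lines mark a log2 change of 1. Both large families spread to either side of 0, from −5.07 to 4.86 in the lipid transfer proteins and from −5.37 to 2.75 in the GDSL proteins, while 8 of the 12 other contigs lie on the side of a fall and were called.

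KCS10, known as FIDDLEHEAD in Arabidopsis, where its loss lets organs fuse, elongates fatty acids for the surface lipids of the epidermis. Its contig stood at 35.5, 39.2 and 50.9 RPKM in the H6 libraries and at 48.3, 51.7 and 42.9 in H9. It then stood at 7.63, 4.04 and 10.1 RPKM in H15 and at 2.13, 3.53 and 2.08 in H20. H6 and H9 overlapped, and each later time point lay entirely below the one before it. The fall was −2.58 ± 0.28 (log2, SE) from H9 to H15 (adjusted p = 3.59e-06) and −1.52 ± 0.31 from H15 to H20 (adjusted p = 0.00184), and came to −3.94 ± 0.31 from H6 to H20, a 15.3-fold lower level (adjusted p = 8.24e-08, edgeR).

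CER3, also called WAX2 or YORE-YORE, works with CER1 in Arabidopsis in turning very long-chain acyl groups into alkanes, the main waxes of the stem. Its contig had 27.6, 27.6 and 30.7 RPKM in H6, 20.0, 22.5 and 17.0 in H9, 10.2, 6.61 and 16.4 in H15, and 15.0, 13.9 and 14.6 in H20. All later libraries lay below the 3 of H6. The difference between H20 and H6 was −0.88 ± 0.23 (log2, adjusted p = 0.00291, edgeR), which is inside the limit of 1, so that CER3 was called at no step. Both contigs had a lowest H15 value in replicate 2 (41.6% of all contigs) and a highest in replicate 3 (39.7%). They differed in that KCS10 went on falling to H20.

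Among the lipid transfer proteins, 9 of 16 rose from H6 to H20 (34.2% of all contigs), 6 fell (37.4%) and 1 was not called. The largest rise was that of the AT5G38170 contig, annotated as a lipid transfer protein of the 2S albumin superfamily. It had 4.48, 10.4 and 8.09 RPKM in H6 and 4.07, 1.97 and 1.29 in H9, then 172, 182 and 183 in H15 and 209.7, 156 and 263.5 in H20. The low and the high libraries were thus separated by the interval from H9 to H15, in which the log2 change was 6.33 ± 0.38, an 80.3-fold rise (adjusted p = 4.23e-08). The first step had been a fall of −1.67 ± 0.37 (adjusted p = 0.00131), the last step passed no test (0.20 ± 0.28, adjusted p = 0.594), and the change from H6 to H20 was 4.86 ± 0.35 (adjusted p = 3.18e-08, edgeR).

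LTP4, one of the numbered secreted lipid transfer proteins of Arabidopsis, took the same course at a lower level. Its contig had 4.55, 3.45 and 4.20 RPKM in H6, 2.06, 1.65 and 0.87 in H9, 16.8, 9.17 and 18.3 in H15, and 16.5, 15.8 and 13.9 in H20. H9 lay below every H6 library and H15 above, and the log2 changes were −1.42 ± 0.33 (adjusted p = 0.00175) and then 3.39 ± 0.31 (adjusted p = 9.59e-07, edgeR). Together with AT5G38170, the AT2G44300 contig 17858 and the GDSL contig AT4G01130, LTP4 made up the 4 members that fell at the first step and rose at the second. Of all contigs, 18.2% fell at the first step and 22.7% rose at the second. The share that did both was not counted, so the 4 are not said to be unusual.

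A further pair of lipid transfer proteins was level until H9 and high from H15. The AT3G22600 contig, annotated as xylogen like protein 8, had 26.9, 31.2 and 29.4 RPKM in H6, 29.2, 29.3 and 23.9 in H9, 126, 124 and 127 in H15, and 169, 95.8 and 130 in H20. Xylogen, after which it is named, is a secreted lipid transfer and arabinogalactan protein of zinnia cultures that promotes the differentiation of vessel elements. The H15 libraries were within 3 RPKM of each other and the H20 libraries spread around them, with a log2 change of 2.34 ± 0.18 at the H9 to H15 step (adjusted p = 2.16e-07, edgeR). The AT5G48490 contig kept rising, from 24.5, 26.1 and 30.1 RPKM in H6 and 27.4, 20.7 and 15.6 in H9 to 75.8, 92.8 and 72.4 in H15 and 145, 145 and 121 in H20. Its log2 change was 2.07 ± 0.19 from H9 to H15 (adjusted p = 8.78e-07) and 0.74 ± 0.18 from H15 to H20 (adjusted p = 0.00520, not called), and 2.44 ± 0.19 from H6 to H20.

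Other abundant lipid transfer contigs had smaller rises than AT5G38170. AT3G18280 had the highest levels of H15 and H20, with 183, 222 and 224 RPKM in H6, 409.7, 279 and 197 in H9, 595, 442 and 560.1 in H15, and 420.3, 548 and 383 in H20. H9 overlapped H6 and spread more than 2-fold between its own libraries, and no single step was called, the nearest being 0.99 ± 0.22 from H9 to H15. From H6 to H20 the contig rose by a log2 change of 1.20 ± 0.22, with no overlap (adjusted p = 1.56e-04, edgeR). AT1G62510, which the files also describe as similar to a proline-rich protein, rose in 2 smaller steps of 0.84 ± 0.12 and 0.92 ± 0.12 and in all by 1.55 ± 0.12 (adjusted p = 6.25e-08), from 56.4 to 59.9 RPKM in H6 to 152 to 174 in H20. Neither of its steps reached the limit of 1, although the libraries of H6, H9 and H15 did not overlap.

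AT5G05960 was the leading lipid transfer contig of the young hypocotyl. It had 517, 632 and 485 RPKM in H6 and 681, 667 and 844 in H9, then 194, 147 and 223 in H15 and 109.7, 154 and 150.5 in H20. All libraries of the first 2 time points were above all libraries of the last 2, and the log2 change was −1.83 ± 0.18 from H9 to H15 (adjusted p = 1.51e-06, edgeR) and −1.88 ± 0.18 from H6 to H20. The contig described only as a putative lipid transfer protein, with no locus, fell at the same step by −1.85 ± 0.29 (adjusted p = 8.05e-05), from 15.8 to 25.2 RPKM in H9 to 3.94 to 7.81 in H15.

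A further 3 lipid transfer contigs were named after their values were seen. GLTP1, which carries glycolipids between membranes inside the cell, rose with no single step called, from 35.2 to 45.8 RPKM in H6 to 78.4 to 84.4 in H20 (1.13 ± 0.11, adjusted p = 6.26e-07). AT4G00165, a putative lipid-binding protein, had 14.5, 16.2 and 17.0 RPKM in H6 and 10.1, 9.90 and 9.18 in H9. It dipped to 2.08, 2.58 and 1.92 RPKM in H15 and stood at 4.45, 7.67 and 5.63 in H20, so that it was the 1 lipid transfer contig called higher at the last step (1.38 ± 0.22, adjusted p = 3.14e-04, edgeR). AT3G53980 rose from H9 to H15 (1.32 ± 0.27, adjusted p = 6.11e-04) and was above H6 by 0.84 ± 0.27 in H20, short of the limit.

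**Figure D2:**
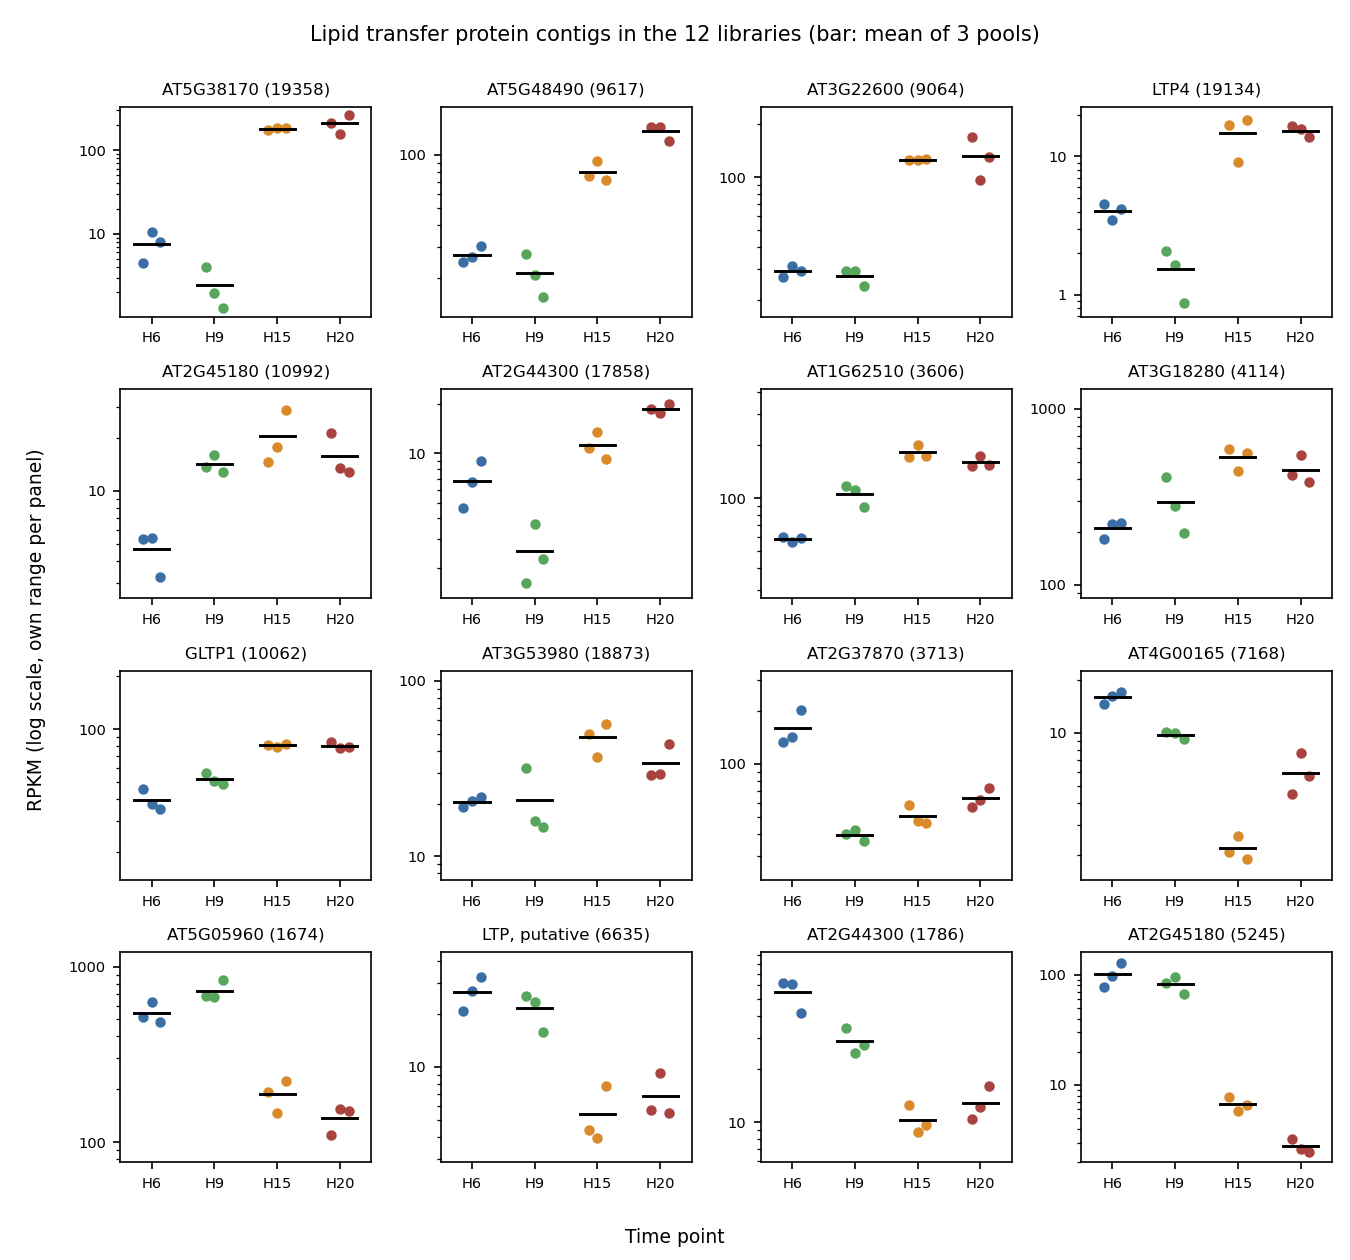
RPKM of the 16 lipid transfer contigs (log axis with its own range in each panel) in the 3 libraries of each time point, with the mean as a bar, ordered by their change from H6 to H20. In 11 panels a called change separates H9 from H15, upward in 6 and downward in 5.

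The summed level of the 16 lipid transfer contigs lay between 1202 and 1606 RPKM in every library while its makeup changed. The mean sum was 1309 ± 98.6 RPKM (SD, n = 3) at H6 and 1456 ± 97.5 at H9. For H15 it was 1537 ± 108, and H20 had 1484 ± 33.6. AT5G05960 held 41.6% and 50.4% of it in H6 and H9, and 12.2% and 9.29% in H15 and H20. AT3G18280 went from 16.0% to 34.5% and 30.3% over H6, H15 and H20, and AT5G38170 from 0.576% to 11.7% and 14.2%. AT3G22600 and AT5G48490 held 2.23% and 2.06% in H6, and 8.90% and 9.21% in H20. The first rank thus passed from AT5G05960 to AT3G18280 between H9 and H15.

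**Figure D3:**
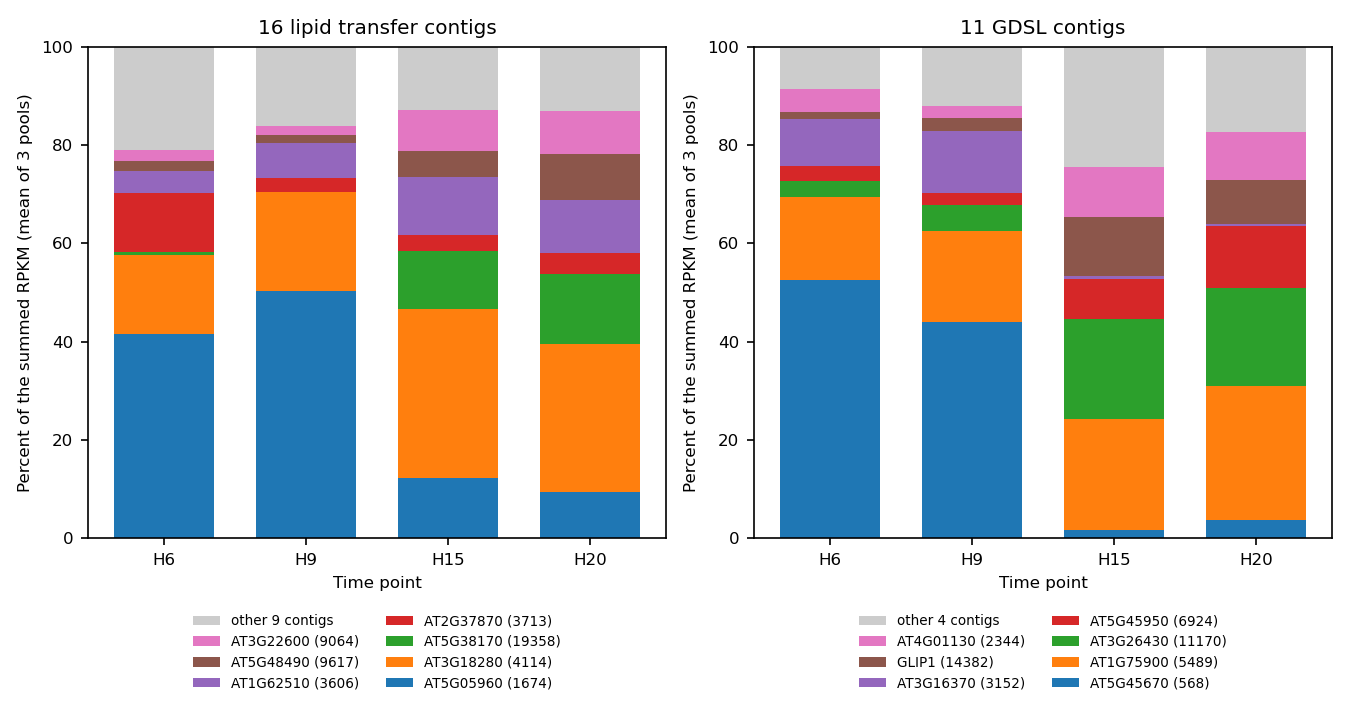
Share of the summed RPKM (percent, mean of 3 pools) held by each contig at each time point, for the 16 lipid transfer contigs (left) and the 11 GDSL contigs (right), with the smaller contigs in grey. AT5G05960 leads the lipid transfer contigs in H6 and H9 and AT3G18280 in H15 and H20. AT5G45670 leads the GDSL contigs at first with 52.6% in H6 and holds 1.56% in H15.

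The GDSL proteins, by contrast, had a lower summed level later on. It was 737 ± 67.3 RPKM (SD, n = 3) at H6 and 444 ± 51.0 at H9, and the later time points had 202 ± 22.1 (H15) and 279 ± 8.50 (H20). Most of this difference was 1 contig, AT5G45670, described as an extracellular lipase of the GDSL family, with 52.6% of the sum in H6. It had 368, 367 and 426 RPKM in H6, 209, 184 and 191 in H9, 3.80, 0.63 and 5.52 in H15, and 9.80, 11.5 and 10.2 in H20. Each time point was separate from the next, and the level reached its low in H15 and was higher again in H20. The log2 change was −5.76 ± 0.49 from H9 to H15 (adjusted p = 5.07e-07), 1.66 ± 0.44 from H15 to H20 (adjusted p = 0.00896) and −5.11 ± 0.46 from H6 to H20 (adjusted p = 2.63e-07, edgeR). Its first step, −1.01 ± 0.39 (adjusted p = 0.0314), was only just called. That call was lost when H6 replicate 3 was left out (−0.93, adjusted p = 0.0661), or H9 replicate 1 (−1.05, 0.0608), 2 (−0.96, 0.0803) or 3 (−1.01, 0.0684).

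AT3G16370, named in the files as the extracellular GDSL lipase APG, had the largest fall of all members from H6 to H20. It had 61.6, 69.6 and 83.3 RPKM in H6 and 60.9, 53.6 and 53.2 in H9, against 1.05, 1.42 and 1.55 in H15 and 1.20, 2.18 and 1.51 in H20. There was no library between 2.18 and 53.2 RPKM. The log2 change was −5.22 ± 0.22 from H9 to H15, a 37.2-fold fall (adjusted p = 4.61e-09), and −5.37 ± 0.22 from H6 to H20, a 41.4-fold fall (adjusted p = 6.39e-10, edgeR).

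Of the 11 GDSL contigs, 4 rose from H6 to H20 (34.2% of all contigs) and 4 fell (37.4%). Among the risers, AT1G71250 had 4.49, 2.36 and 3.83 RPKM in H6 and 25.2, 19.5 and 22.2 in H20, a log2 change of 2.75 ± 0.29 (adjusted p = 1.12e-06), with its called step between H9 and H15 (2.80 ± 0.29). AT3G26430 rose from 20.6, 26.1 and 25.7 RPKM to 57.8, 51.5 and 56.9 without a called step, by 1.3 ± 0.12 in all (adjusted p = 3.78e-07, edgeR). The other 2 both match GLIP1, a secreted GDSL lipase with a role in the immune response of Arabidopsis. GLIP1 contig 15883 went from 4.70, 5.53 and 4.32 RPKM in H6 to 13.5, 20.3 and 14.3 in H9 and stayed between 12.3 and 16.0 afterwards. GLIP1 contig 14382 had 10.3, 9.21 and 10.9 RPKM in H6, 13.5, 11.3 and 9.34 in H9 and 22.7 to 25.9 in H15 and H20. Contig 15883 was thus called between H6 and H9 (1.71 ± 0.18, adjusted p = 3.74e-06) and contig 14382 between H9 and H15 (1.22 ± 0.14, adjusted p = 5.75e-06, edgeR).

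Several GDSL contigs had their low point in the middle of the series. AT4G01130, an extracellular lipase by its description, had 35.7, 30.3 and 36.0 RPKM in H6, 14.2, 9.83 and 10.3 in H9, 21.8, 14.3 and 27.6 in H15, and 23.2, 23.8 and 35.9 in H20. The drop to H9 was −1.58 ± 0.24 (adjusted p = 5.90e-05, edgeR), and H20 overlapped H6, with a log2 difference of −0.20 ± 0.23 (adjusted p = 0.408) whose sign changed with the scaling. The rise from H9 to H15 (1.02 ± 0.23, adjusted p = 0.00136) fell under the limit without H9 replicate 2 (0.92), H9 replicate 3 (0.98) or H15 replicate 3 (0.79). AT5G45950 was named after its values were seen, as a further contig with a fall to H9 and a later rise. It had 19.6, 22.1 and 24.8 RPKM in H6, 10.8, 12.9 and 8.93 in H9, 16.9, 11.0 and 21.5 in H15, and 33.0, 37.9 and 34.7 in H20, and it ended above H6 by 0.77 ± 0.20 (not called, adjusted p = 0.00263). Its fall to H9 (−1.05 ± 0.20) was not called without H6 replicate 3 (−0.95) or H9 replicate 3 (−0.94), nor its rise from H15 to H20 (1.08 ± 0.20) without H15 replicate 2 (0.87).

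AT5G45960 had 13.8, 17.4 and 17.6 RPKM in H6 and between 5.55 and 8.48 in all later libraries. Its fall to H9 was −1.21 ± 0.15 (adjusted p = 1.11e-05, edgeR). Its change from H6 to H20 (−1.02 ± 0.15, adjusted p = 1.75e-05) sat on the limit and was not called without H6 replicate 2 (−0.98) or 3 (−0.96), nor without H20 replicate 1 (−0.99) or 2 (−0.96). The same holds for the lipid transfer contig AT2G37870, named for this reason after its values were seen. It fell from 133, 141 and 201 RPKM in H6 to 56.6, 62.2 and 73.1 in H20, by −1.21 ± 0.17, or by −1.0 and no longer called without H6 replicate 3. Its first step was firmer, a fall to 36.4 to 41.7 RPKM in H9 of −2.03 ± 0.17 (adjusted p = 7.17e-07).

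**Figure D4:**
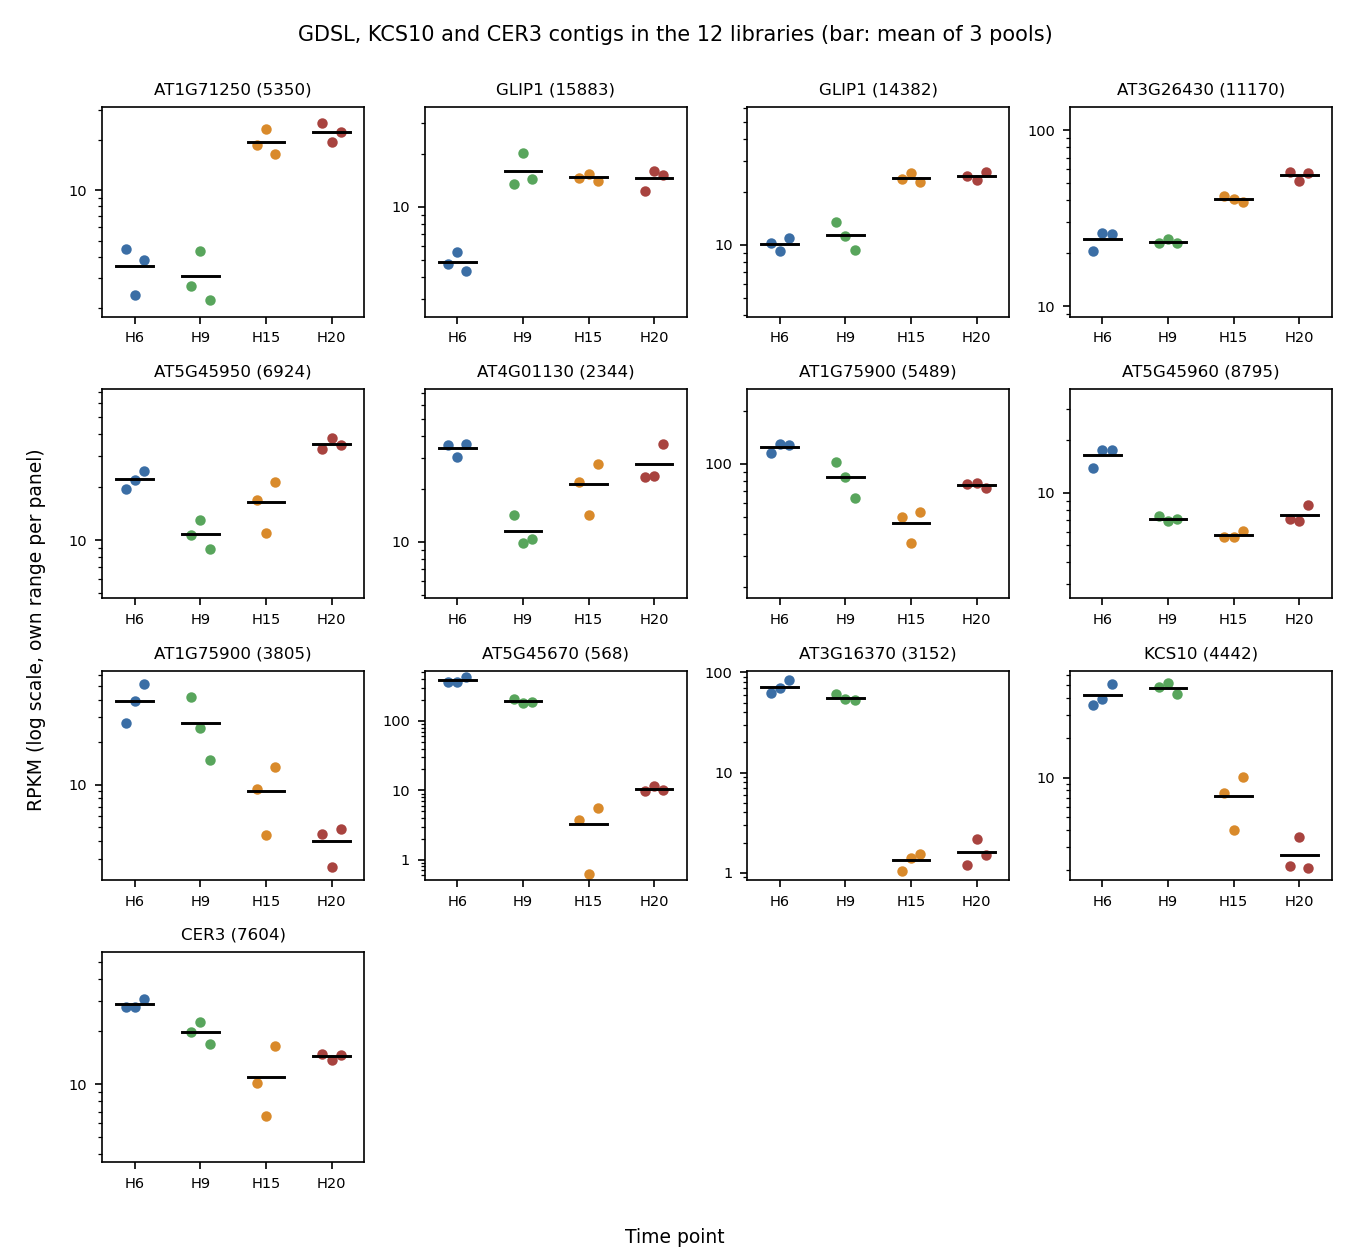
RPKM of the 11 GDSL contigs, KCS10 and CER3 (log axis with its own range in each panel) in the 3 libraries of each time point, with the mean as a bar. AT5G45670 and AT3G16370 drop by more than 30-fold between H9 and H15, and AT1G71250 rises at the same step.

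In 4 cases a pair of contigs shared an Arabidopsis match, and in 2 of these pairs the contigs moved in opposite directions from H6 to H20. The files also describe AT2G45180 as a putative proline-rich protein. Contig 5245 had 77.0, 98 and 128 RPKM in H6, 83.5, 96.0 and 67.1 in H9, 7.76, 5.75 and 6.58 in H15, and 3.23, 2.61 and 2.48 in H20. Contig 10992 had 5.35, 5.41 and 3.24 RPKM in H6, 13.7, 16.0 and 12.8 in H9, 14.6, 17.8 and 28.9 in H15, and 21.2, 13.5 and 12.8 in H20. The former led by 21.6-fold in H6 and the latter was ahead in every library of H15 and H20. Their log2 changes from H6 to H20 were −5.07 ± 0.23 (adjusted p = 1.28e-09) and 1.87 ± 0.30 (adjusted p = 5.44e-05, edgeR). The log2 ratio of the pair went from 4.44 ± 0.76 (SD, n = 3) to −2.48 ± 0.20, with an exact two-sided permutation p of 0.1, the smallest that 3 libraries against 3 allow.

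AT2G44300 is annotated as xylogen like protein 10, anchored in the membrane by its gene ontology terms. Contig 1786 had 62.2, 61.4 and 41.9 RPKM in H6, 34.3, 24.8 and 27.3 in H9, 12.6, 8.80 and 9.71 in H15, and 10.5, 12.3 and 16.1 in H20. Contig 17858 had 4.65, 6.69 and 8.98 RPKM in H6, 1.62, 3.68 and 2.26 in H9, 10.8, 13.5 and 9.22 in H15, and 18.8, 17.7 and 19.9 in H20. The first was above the second in every library of H6 and H9, and below it in every library of H20. The log2 changes from H6 to H20 were −1.99 ± 0.21 (adjusted p = 1.16e-06) and 1.56 ± 0.28 (adjusted p = 1.47e-04, edgeR). The log2 ratio went from 3.05 to −0.56 (exact permutation p = 0.1).

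The AT1G75900 pair, family II extracellular lipases also called EXL3, differed in how much they changed from H6 to H20. Contig 5489 had 115, 129 and 127 RPKM in H6, 102, 84.2 and 63.9 in H9, 50, 35.5 and 52.9 in H15 and 77.0, 77.8 and 72.8 in H20, and no comparison called it. From H15 to H20 its libraries lay higher without overlap (0.70 ± 0.16, adjusted p = 0.00411, inside the limit of 1). Contig 3805 fell from 27.5, 38.9 and 51.5 RPKM in H6, through 41.9, 25.1 and 15.1 in H9 and 9.34, 4.40 and 13.4 in H15, to 4.47, 2.63 and 4.85 in H20, by a log2 change of −3.19 ± 0.44 (adjusted p = 1.39e-05, edgeR). Contig 5489 had the highest mean of the GDSL contigs in H15 and H20, with 22.7% and 27.2% of their sum, at a lower level than in H6. In H15 replicate 2 AT3G26430 stood above it, at 40.7 against 35.5 RPKM. The last step of contig 3805 (−1.19 ± 0.43, adjusted p = 0.0427) had overlapping libraries and lost its call without 1 of H6 replicate 2, H9 replicate 2, H15 replicate 1 or 3, or any H20 library (log2 change from −1.34 to −0.78). The log2 ratio of the 2 GLIP1 contigs, 14382 over 15883, was 1.07 (H6), −0.49 (H9), 0.71 (H15) and 0.78 (H20). It was lower in every H9 library (−0.85 to 0.00) than in any of H6 (0.74 to 1.34) or H15 (0.69 to 0.74), while H6 and H20 overlapped (exact permutation p = 0.3). With 3 libraries against 3, none of these ratios could reach a p under 0.05. The counts are of reads with a single mapping position, so reads common to both contigs of a pair are not in them.

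**Figure D5:**
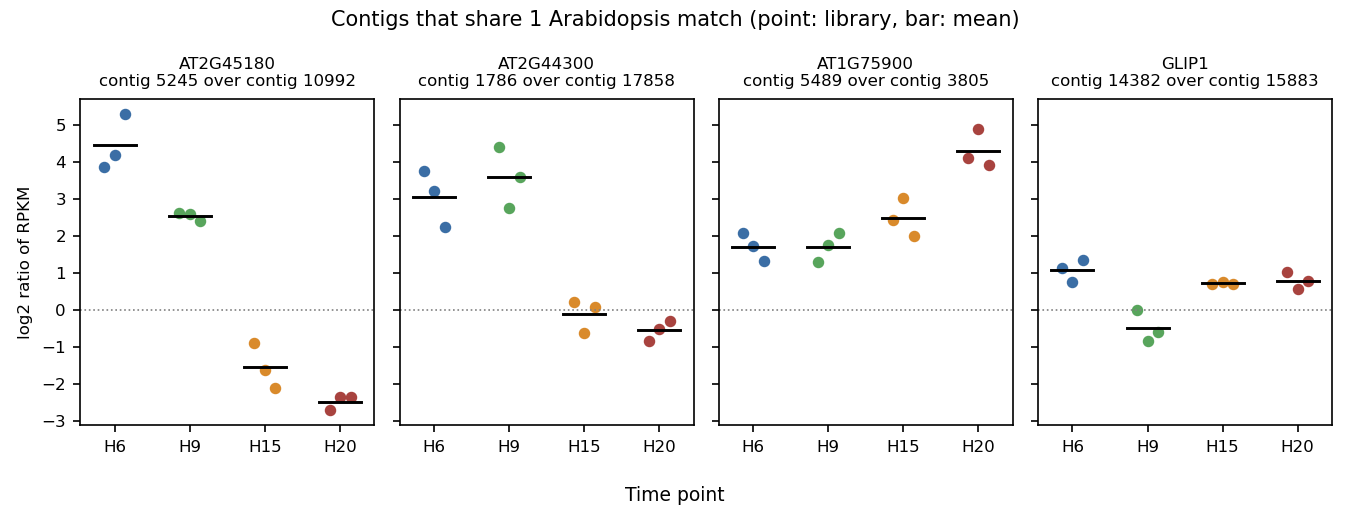
Log2 ratio of the RPKM of contigs that share an Arabidopsis match, in each library (points) and as a mean of 3 (bars), by time point. The ratio crosses 0, the line of equal level, between H9 and H15 for AT2G45180, is near 0 in H15 and below it in H20 for AT2G44300, and rises to 4.30 in H20 for AT1G75900.

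Gene ontology terms in the table, which the search had not used, placed 16 of the 29 members in the extracellular region (9 lipid transfer and 7 GDSL contigs), where 198 of all 3622 contigs were placed. Of these 16, 5 rose and 7 fell from H6 to H20 (34.2% and 37.4% of all contigs), with a median log2 change of −0.40, and of the 182 other extracellular contigs 80 rose and 68 fell, with a median of 0.32. Cuticle development was given for 5 members, KCS10, AT3G16370, AT5G45950 and both AT2G45180 contigs, and for 9 other contigs. Of the 5 members 1 rose and 3 fell, with a median log2 change of −3.94, and of the 9 other contigs 2 rose and 3 fell, with a median of −0.49. Of the 3 members given as anchored in the membrane, all of them xylogen like, 2 rose and 1 fell, beside 9 risers and 0 fallers among 11 other contigs with that term.

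For the remainder of the pathway, 70 genes of wax, cutin and suberin synthesis, export, regulation, the epidermis and plastid fatty acid supply were looked up, and 11 that are not members were found, as 12 contigs. From H6 to H20, 2 of these contigs rose (34.2% of all contigs) and 8 fell (37.4%). The median log2 change was −1.99 over the 12 and −0.58 over all contigs. The falls took in several cutin steps. PEL3, also called DCR, an acyltransferase needed for cutin, fell from 33.4 to 44.6 RPKM in H6 to 1.20 to 3.00 in H20 (−4.13 ± 0.32, adjusted p = 7.30e-08). The omega-hydroxylases CYP86A4 (−2.46 ± 0.29) and CYP86A8 (−1.32 ± 0.17), the acyl-CoA synthetase LACS2 (−1.84 ± 0.18) and both contigs of the lipid exporter WBC11 (−2.14 ± 0.18 and −2.25 ± 0.23) fell as well. Of the acyltransferases GPAT6 and GPAT8, which build cutin precursors, neither was called, at −0.84 ± 0.24 and 0.63 ± 0.18.

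MYB30, an activator of very long-chain fatty acid synthesis in Arabidopsis, fell by −2.58 ± 0.45 (adjusted p = 1.16e-04, edgeR). The 2 contigs that rose were not cutin genes. AT5G41040, the feruloyl transferase of aliphatic suberin, rose from 4.14, 2.04 and 1.12 RPKM in H6 to 47.2, 28.8 and 44.2 in H20 (4.17 ± 0.35, adjusted p = 1.51e-07). BCCP2, a subunit of the plastid acetyl-CoA carboxylase, rose by 1.19 ± 0.11. A contig outside the search and the lists was added after its values were seen, contig 188, which the deposited description gives only as a locus and which the study's annotation names CER6, a ketoacyl-CoA synthase of stem waxes. It fell from 171, 179 and 209 RPKM in H6 through 116, 121 and 102 in H9 and 20.4, 13.6 and 29.1 in H15 to 25.1, 22.3 and 23.4 in H20, a log2 change of −2.88 ± 0.21 (adjusted p = 4.10e-08).

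Markers of single tissues moved over the same interval. Of 7 epidermis genes looked up by symbol or locus, 1 was found, HDG2, with 9.19 to 11.1 RPKM in H6 and 9.70 to 13.9 in H9. This contig is also among the falling contigs counted for the pathway above. It had 1.35 to 5.34 RPKM in H15, and H20 had 0.76 to 1.31 (−3.23 ± 0.39, adjusted p = 4.19e-06, edgeR). Its lowest H15 library was replicate 2 and its highest replicate 3, as for KCS10, CER3 and AT5G45670. Replicate 2 was the lowest of H15 for 41.6% of all contigs and replicate 3 the highest for 39.7%. AT3G16370, PEL3, CYP86A4, CYP86A8 and GPAT8 were lowest in replicate 1, and GPAT6 in replicate 3. LACS2 was lowest in replicate 2 but highest in replicate 1. Both WBC11 contigs and MYB30 had the order of HDG2. So had contigs that rose from H9 to H15, among them LTP4 (16.8, 9.17 and 18.3 RPKM in H15) and AT3G53980 (49.5, 36.8 and 56.5). The order was thus not particular to falling contigs. Of 6 genes of xylem vessels and fibers, 3 were found by symbol or locus (CESA4, IRX3 and MC9). The study also reports a CESA8 ortholog as higher at later stages, which this lookup did not find. The 3 had a summed level of 110.4 to 192 RPKM in H6, 397 to 629 in H9, and higher sums later (H15, 1837 to 2025 RPKM, and H20, 1749.6 to 1887). CESA4 and IRX3 carried this sum. MC9, a protease of dying vessel cells, went the other way, with 24.6 to 26.6 RPKM in H6, 4.49 to 14.2 in H15 and 10.8 to 14.5 in H20 (−0.91 ± 0.32 from H6 to H20, not called), and it too was lowest in replicate 2 and highest in replicate 3 of H15. Of 4 cambium genes 2 were found, WOX4 and PXY, which both rose from H6 to H20, by 1.19 ± 0.13 and 1.33 ± 0.18. Of 9 genes of seed reserves and their use 1 was found, ICL, the isocitrate lyase of the glyoxylate cycle, with means of 10.5, 13.6, 0.963 and 0.503 RPKM over H6, H9, H15 and H20 (−4.31 ± 0.37, adjusted p = 1.74e-07). Of 5 sieve element and phloem genes 1 was found, as 6 contigs, which all rose from H6 to H20, from a sum of 158 to 365 RPKM to one of 667 to 758. The photosynthetic markers (3 of 3 genes, 6 contigs) summed to 8031 to 11746 RPKM in H6 and 4156 to 4239 in H20. CAB1 contig 126 carried most of this sum, with means of 8410.3 RPKM in H6 and 3444 in H20. Of the 6 contigs, 3 were called lower from H6 to H20 (37.4% of all contigs) and 0 higher. The part of these tissue markers in the changes of the lipid transfer, GDSL and wax contigs was not tested.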

How the data were processed

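The authors trimmed and assembled the reads of 12 stranded mRNA libraries de novo in the CLC Genomics Workbench, mapped each library to the contigs and annotated these against Arabidopsis with Blast2GO. The deposited count values are uniquely mapped reads. The authors' RPKM follow from these counts for most contigs but not for all (3483 of 3609 compared in H6 replicate 1). The deposited p-value column, the authors' FDR of a 4-group ANOVA on RPKM, and their mean RPKM columns were not used. Contigs were deposited if this FDR was below 0.05 and their means differed by more than 2-fold and by more than 10 RPKM. On recomputation 3620 of the 3622 contigs and all 29 members passed both latter limits.

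Counts of all 3622 contigs were analysed in edgeR 4.0.16 (R 4.3.3), by 1 model of the 4 time points with 8 residual degrees of freedom, library sizes set to the mapped totals that counts, contig lengths and RPKM imply (median 19204883 reads), and TMM factors of 0.926 to 1.06. filterByExpr removed 0 contigs. P-values were adjusted by Benjamini and Hochberg's method over all contigs. Standard errors of the edgeR log2 changes were derived from the test, as the absolute log2 change over the square root of its F statistic. Because the authors had selected these contigs on the same libraries, the adjusted p-values are to be read within that selection. They may be too small as false discovery rates. On simulated counts for H20 against H6 over 3622 contigs, 97 of 100 contigs changed by a log2 of 1.5 were called, 100 of 100 changed by 3 and 0 of 3422 unchanged. The simulation changed few contigs, as many up as down, and gave all contigs the same spread. It therefore checks that the code runs as meant and gives no error rate for a table in which most contigs change. The 3 replicates are pools of separate plants of a single batch. Ratios of 2 contigs were compared by exact permutation with scipy 1.17.1. Alternatives used limma 3.58.1, DESeq2 1.42.0, other scalings and filters, and each library left out. The numbers of the replicates carry no stated link across time points.

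In each family the 4 highest means, the 4 largest rises and falls from H6 to H20, the 3 largest reversals, uncalled members, members sharing a match with these, and families of at most 6 were named, and others are said to be named after their values were seen. Members and gene lists were chosen with earlier results of these data known. Sequences and genome positions of the contigs were not analysed here.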

Additional observations from a re-analysis of the deposited data

How the results depend on the processing

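The counts of members rising and falling were recomputed under each alternative. With DESeq2, 5 members fell from H6 to H9 in place of 8. From H6 to H20, 15 rose and 9 fell with DESeq2, and also with only the 2 time points fitted, in place of 13 and 11. TMM on the sums of deposited contigs gave 14 and 9 there, and 12 and 9 from H9 to H15 in place of 9 and 9. With an adjusted p under 0.05 and no limit on the fold change, 5 rose from H6 to H9, 16 from H9 to H15 and 7 from H15 to H20, in place of 2, 9 and 3, and 12, 11 and 4 fell, in place of 8, 9 and 3. Over the fits without 1 library, the counts for H9 against H6 were 2 higher and 6 to 8 lower, for H15 against H9 8 to 10 higher and 9 to 10 lower, for H20 against H15 2 to 3 higher and 2 to 3 lower, and for H20 against H6 13 higher and 9 to 11 lower. With the replicate number as a block the counts were the same as without it (2 and 8, 9 and 9, 3 and 3, 13 and 11). The members counted were not all the same. The block took the call from AT4G01130 at the H9 to H15 step (0.99), and another member gained a call there. Correlations of the deviations of same-numbered libraries from their time point ranged from −0.281 to 0.257, and 5 of 12 libraries correlated best with their own number. With 3 libraries per time point these values cannot settle whether the numbers pair the libraries. Of 63 results for single contigs, 52 kept their direction and call in every alternative. The 63 were the change of each member from H6 to H20 and the steps called in the fit reported. Calls gained at other steps were therefore not counted. The log2 change of AT4G01130 from H6 to H20 (−0.20) turned to 0.03 with TMM on the sums of the deposited contigs, to 0.09 with DESeq2 and to 0.04 when only these time points were fitted.

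The scaling limits all of these values, since most contigs in the table change and no unchanged set is at hand. Against the fit reported, the median log2 change of all contigs from H6 to H20 moved by −0.10 with the mapped totals alone, 0.23 with TMM on the deposited sums, 0.25 with only these time points fitted and 0.29 with DESeq2. Calls near a log2 change of 1 move with it: DESeq2 called AT3G53980 (1.13) and AT5G45950 (1.06) higher and no longer called AT2G37870 (−0.92) or AT5G45960 (−0.73) lower. From H9 to H15, the mapped totals alone moved the median by −0.14 and TMM on the deposited sums by 0.15. Each member had at least 12 reads in each library.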
